A study of Vitis vinifera with 6 samples.

Results

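Flavonols are colourless flavonoids that screen plant tissue from ultraviolet light, and in grapevine they accumulate chiefly as glycosides. Flavonol synthases make them from dihydroflavonols, the same intermediates that feed the anthocyanin and proanthocyanidin branches, and glycosyltransferases then attach a sugar to the hydroxyl at position 3. MYBF1 is the grapevine R2R3-MYB factor that activates flavonol synthase genes, and HY5 and its homologue HYH are basic leucine zipper factors that carry light and ultraviolet-B signals to such genes. This branch was described in leaves in which the WRKY factor VvWRKY26 was expressed from the 35S promoter. It was taken as 9 genes given by their identifiers, of 34369 genes with 1 probe each on the array: MYBF1 (VIT_07s0005g01210), HY5 (VIT_04s0008g05210), HYH (VIT_05s0020g01090), flavonol synthase A (VIT_18s0001g03430), flavonol synthase B (VIT_18s0001g03470), GT5 (VIT_11s0052g01600), GT6 (VIT_11s0052g01630), a flavonol 3-O-glucosyltransferase (VIT_19s0014g01970) and a flavonol 3-sulfotransferase (VIT_13s0106g00550). The letters A and B only tell the 2 flavonol synthase loci apart. All 9 identifiers were found on the array. The glucosyltransferase and the sulfotransferase bear the names of the study, which listed both among genes that were up-regulated on these very arrays, so their higher level here is not independent evidence. The other 7 genes bear the names that came with the gene list, and the array files pair no description with them.

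The samples were young leaves of in vitro plantlets of Vitis vinifera cv. Sultana, a white-berried cultivar. All were grown at 25°C under a photoperiod of 16 h. Plantlets 5 weeks old, 6 per construct, were vacuum-infiltrated with Agrobacterium tumefaciens strain C58C1, which carried either the 35S:VvWRKY26 construct or, as control, a pK7WG2.0 vector with a non-coding sequence, and leaves were taken 6 days later. Both groups were thus infiltrated, although the labels name the controls wild type. The 35S promoter is constitutive and the expression was transient, so the leaves are not a stable line. From these the study selected 3 plantlet lines per group, with high VvWRKY26 expression in 35S:VvWRKY26 and low in the controls, and 1 array was made per line. The tests without a block measure the spread between lines, and the fits with a block the spread left after that block. Plantlets of a construct shared a bacterial suspension, so effects of suspension and construct cannot be told apart. The arrays lay in 3 scans, each with 1 array of each group: control replicate 1 with 35S:VvWRKY26 replicate 1 in scan 1, control 2 with 35S:VvWRKY26 3 in scan 2, and control 3 with 35S:VvWRKY26 2 in scan 3.

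Values are log2 of the spot signal minus the 75th percentile of its array, and where 3 values of a group follow each other they are those of replicates 1, 2 and 3 in that order. Between 73.9% and 94.9% of gene probes were well above background per array, with the highest shares on both arrays of scan 2. The headers of control replicates 1 and 2 name the same slide and position, as do those of 35S:VvWRKY26 replicates 1 and 3, but these pairs correlated at 0.898, the lowest of all 15 pairs, and 0.952 across genes, below the highest pair. All 7 genes used as leaf markers, most of them chloroplast genes and among them PSBS and CRD1, were well above background on every array, and 1 outlier spot of PSBS was left out of its fit. Their log2 differences had a median of 0.00 and ranged from -0.67 to 0.72. Within the groups they were uneven: all 7 were highest of the controls in replicate 1, and 6 of 7 were lowest of the 35S:VvWRKY26 arrays in replicate 2. Their mean log2 level was 2.80, 1.33 and 1.35 in the control lines and 1.98, 1.45 and 2.15 in the 35S:VvWRKY26 lines. Control replicate 1 was also the highest control in MYBF1, GT5 and GT6. It was the lowest in HY5, HYH, both flavonol synthases and the flavonol 3-sulfotransferase, and lay between the other controls only in the flavonol 3-O-glucosyltransferase. The part of the leaf genes in those results was not tested. VvWRKY26 itself read 3.12, 3.25 and 2.57 in the control lines, against 3.40, 3.69 and 3.32 in the 35S:VvWRKY26 lines. It was higher on every 35S:VvWRKY26 array than on any control array, by 0.49 ± 0.34 (SE) on the log2 scale (limma adjusted p = 0.999983). Since the study had selected the lines for high VvWRKY26 expression, and the control lines for low, this separation is not independent evidence. No gene of the array passed the limma test at an adjusted p of 0.05, and 355 had an unadjusted p under 0.05.

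HY5 was lower in the 35S:VvWRKY26 leaves of every scan. In whole leaves, less RNA per cell and fewer cells that hold it cannot be told apart, here and for the genes below. Its log2 values were -1.69, 0.12 and -0.77 in the control lines, against -2.26, -2.25 and -1.18 in the 35S:VvWRKY26 lines. The groups overlapped, because control replicate 1 lay below 35S:VvWRKY26 replicate 3. The mean was lower by a log2 difference of -1.12 ± 0.59 (SE, 95% interval -2.58 to 0.34, n = 3 and 3), a fold of 0.460. The limma adjusted p was 0.999983, as for each of the 9 genes, and the exact permutation p was 0.2 (two-sided; 0.1 is the smallest that 3 arrays against 3 allow). Within scans 1, 2 and 3 the difference was -0.57, -1.30 and -1.48. With scan as a block the SE narrowed to 0.32 and the unadjusted limma p to 0.0165, with an adjusted p of 0.876185; 3.59% of all genes were lower at an unadjusted p under 0.05 in that fit, and 14.3% were lower in all 3 scans. Without control replicate 1 the difference of HY5 was -1.58, and without control replicate 2 it was -0.67.

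HYH shares part of the work of HY5 in Arabidopsis. It read 0.62, 1.62 and 1.18 in the control lines, against 0.76, 0.59 and 0.34 in the 35S:VvWRKY26 lines. Control replicates 2 and 3 lay above all 35S:VvWRKY26 arrays, while control replicate 1 lay among them. The log2 difference was -0.58 ± 0.38 (95% interval -1.51 to 0.36; exact permutation p = 0.2), and it was 0.14, -1.28 and -0.59 within the 3 scans. It was -0.34 without control replicate 2 and -0.84 without control replicate 1. With scan as a block the SE was 0.37 and the unadjusted limma p 0.179. The order of the control lines was the same for HY5 and HYH, lowest in replicate 1 and highest in replicate 2. Flavonol synthase B and the flavonol 3-sulfotransferase had this order too, so it was not particular to HY5 and HYH. The residual SD of HYH was 0.38, smaller than that of most genes, against 0.78 for HY5.

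MYBF1 was the regulator whose level differed most between control lines. It read -1.53, -4.69 and -3.33 in the control lines, a range of 3.16 on the log2 scale, and -1.80, -2.88 and -1.51 in the 35S:VvWRKY26 lines. Before scaling, the signal was 559, 41.3 and 79.5 on the control arrays and 424, 116 and 504 on the 35S:VvWRKY26 arrays, all well above background. Control replicate 1 thus lay among the 35S:VvWRKY26 lines, and the other controls were below all of them. The log2 difference was 1.12 ± 0.87 (95% interval -1.03 to 3.27), a fold of 2.17, and it did not pass the test (exact permutation p = 0.3). Most of it came from scan 2, where the difference was 3.18, against -0.27 in scan 1 and 0.44 in scan 3. Without control replicate 2 it was 0.37, and without control replicate 1 it was 1.94 with an unadjusted limma p of 0.0342 and an adjusted p of 0.991193. With scan as a block the SE was 0.71 and the unadjusted limma p 0.175. The residual SD of 1.23 exceeded that of 88.6% of the genes that were well above background on every array of a group.

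**Figure D1:**
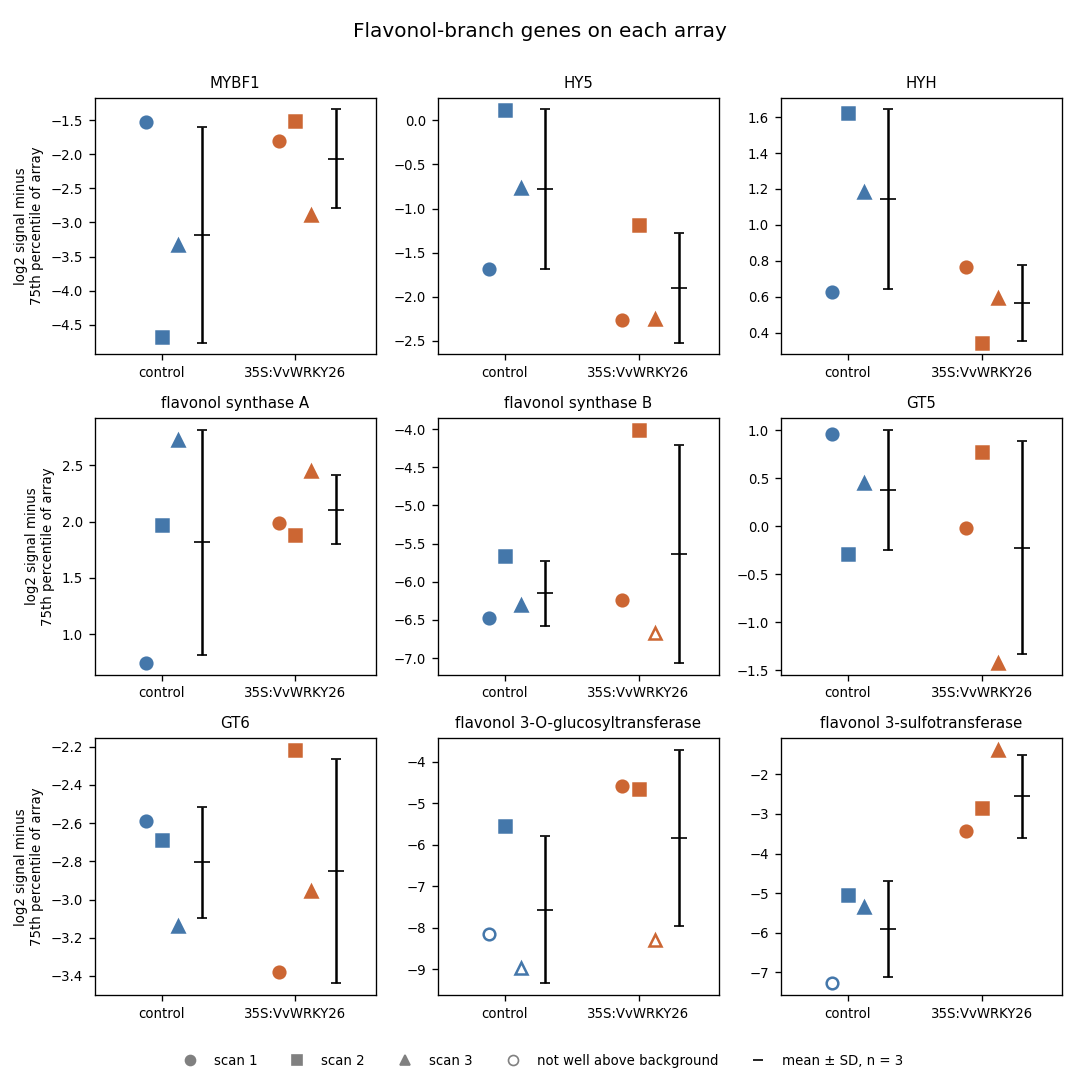
Level of the 9 genes on each array, as log2 signal minus the 75th percentile of the array, with control arrays in blue and 35S:VvWRKY26 arrays in orange, 1 shape per scan, and bars for the mean ± SD of 3 arrays. Open symbols were not well above background. The groups are apart only for the flavonol 3-sulfotransferase, from -7.29 to -5.06 in controls and from -3.42 to -1.38 in 35S:VvWRKY26.

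The 2 flavonol synthase probes, for the enzymes that commit dihydroflavonols to flavonols, showed no difference that passed the test. Flavonol synthase A read 0.74, 1.97 and 2.73 in the control lines, against 1.99, 2.45 and 1.88 in the 35S:VvWRKY26 lines. Only control replicate 1 stood apart, below all the others, and the 35S:VvWRKY26 arrays lay within the range of the controls. The log2 difference was 0.29 ± 0.57 (95% interval -1.11 to 1.70; exact permutation p = 0.8), and without control replicate 1 it turned to -0.24. That control line, the lowest in flavonol synthase A, was the highest of the controls in MYBF1. Within scans 1, 2 and 3 the difference was 1.24, -0.09 and -0.28.

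Flavonol synthase B gave a faint signal. Its log2 values were -6.48, -5.67 and -6.30 in the control lines, against -6.24, -6.67 and -4.01 in the 35S:VvWRKY26 lines, and the spot of 35S:VvWRKY26 replicate 2 was not well above background. In each group the array of scan 2 read highest, and both arrays of scan 2 also had the largest share of probes above background, 94.7% and 94.9%; the part of this in the result was not tested. The log2 difference was 0.51 ± 0.76 (95% interval -1.36 to 2.39; exact permutation p = 0.8). It turned to -0.30 without 35S:VvWRKY26 replicate 3. The log2 ratio of probe B to probe A on the same array, in which scaling cancels, differed between groups by 0.22, with an SD of 0.95 over the controls and 1.67 over the 35S:VvWRKY26 arrays (exact permutation p = 1, two-sided). Within scans 1, 2 and 3 that difference was -1.0, 1.75 and -0.09.

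GT5 and GT6 are the glycosyltransferases characterised in grapevine for flavonols, GT5 adding glucuronic acid and GT6 glucose or galactose at position 3. GT5 read 0.96, -0.29 and 0.46 in the control lines, against -0.01, -1.42 and 0.77 in the 35S:VvWRKY26 lines. The groups overlapped, and 35S:VvWRKY26 replicate 2 was the lowest of all 6 arrays. The log2 difference was -0.60 ± 0.67 (95% interval -2.25 to 1.05; exact permutation p = 0.6), with -0.98, 1.06 and -1.88 within the scans, and it was 0.00 without 35S:VvWRKY26 replicate 2. GT6 read -2.59, -2.69 and -3.14 in the controls and -3.38, -2.95 and -2.22 in 35S:VvWRKY26. The 35S:VvWRKY26 arrays held both the highest and the lowest value of GT6, and the means differed by -0.04 ± 0.42 (95% interval -1.08 to 0.99; exact permutation p = 1), a sign that turned under quantile normalization, without scaling and in the deposited table. The log2 ratio of the GT6 to the GT5 probe differed between groups by 0.56, with SDs of 0.68 and 0.97 (exact permutation p = 0.5). That difference was 0.0063 without 35S:VvWRKY26 replicate 2, 0.95 without control replicate 2 and 0.0267 in the deposited table. The interval of each gene still holds a change of 2-fold, for GT5 and GT6 downward and for GT5 also upward.

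The remaining pair, annotated as modifying enzymes, gave faint signals on the control arrays. The flavonol 3-sulfotransferase, an enzyme class that moves sulfate onto the hydroxyl at position 3 and is best known from Flaveria species, was the only member whose groups did not overlap. It read -7.29, -5.06 and -5.37 in the control lines, against -3.42, -1.38 and -2.84 in the 35S:VvWRKY26 lines. The signal before scaling was 10.3, 31.9 and 19.4 on the control arrays, the first not well above background, and 138, 328 and 200.4 on the 35S:VvWRKY26 arrays. Every 35S:VvWRKY26 line was above every control line. The log2 difference was 3.36 ± 0.81 (95% interval 1.36 to 5.35), a fold of 10.2, and amounted to 3.87, 2.22 and 3.98 within the scans. The unadjusted limma p was 0.00638, the adjusted p 0.999983, and the exact permutation p 0.1, the smallest possible. With scan as a block the SE was 0.45, the unadjusted limma p 0.000604 and the adjusted p 0.876185. With an array left out the difference ran from 2.66 without control replicate 1, the lowest control, to 3.79 without 35S:VvWRKY26 replicate 1. Under normexp background correction (offset 50, median spot signals) the difference was 0.90 with an unadjusted limma p of 0.174, and the groups overlapped. The cause of this change was not tested.

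The flavonol 3-O-glucosyltransferase, which by its name joins glucose to the same hydroxyl, read -8.15, -5.55 and -8.96 in the control lines, against -4.58, -8.29 and -4.64 in the 35S:VvWRKY26 lines. Its spot was well above background only in control replicate 2 and in 35S:VvWRKY26 replicates 1 and 3, so the other values are background readings. The groups overlapped, with 35S:VvWRKY26 replicate 2 among the lowest arrays. The log2 difference of 1.72 ± 1.35 (95% interval -1.60 to 5.04; exact permutation p = 0.3) was -0.12 under normexp correction. With an array left out it ran from 1.02 without control replicate 3 to 2.95 without 35S:VvWRKY26 replicate 2. Within scans 1, 2 and 3 it was 3.57, 0.91 and 0.67, but only in scan 2 were both arrays well above background, and in scan 3 neither was, with signals of 1.6 and 2.74. Both arrays of scan 2 also had the largest share of gene probes above background, 94.7% and 94.9%, and the part of this in the result was not tested. With scan as a block, a fit that uses the background readings, the unadjusted limma p of the glucosyltransferase was 0.0426 and its adjusted p 0.876185. Its residual SD of 1.96 was larger than that of 98.8% of the genes well above background on every array of a group.

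**Figure D2:**
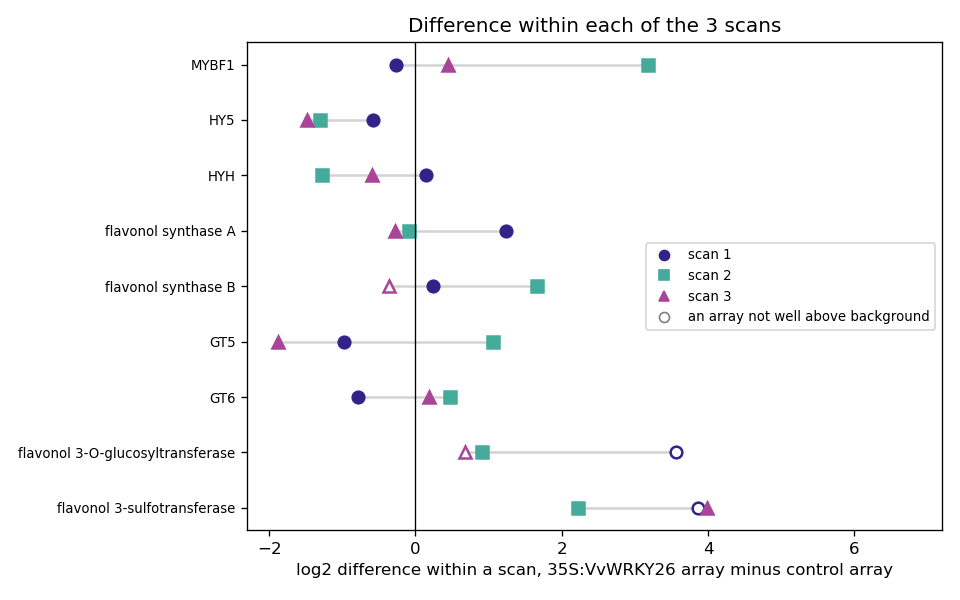
Log2 difference between the 35S:VvWRKY26 and the control array of each scan, 1 symbol per scan, for the 9 genes, open where 1 or both arrays were not well above background. HY5 was lower in all 3 scans and the flavonol 3-sulfotransferase higher in all 3, the flavonol 3-O-glucosyltransferase had both arrays above background in scan 2 alone, and the differences of the other 6 genes lay on both sides of 0.

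Counted together, 5 of the 9 genes were higher in 35S:VvWRKY26 and 4 lower, where 44.6% of all genes were higher. The median log2 difference of the 9 genes was 0.29, against -0.05 over all 34369. Under normexp correction these medians were -0.27 and -0.33, and the signs of the flavonol synthases, GT5, GT6 and the glucosyltransferase turned under at least 1 alternative setting or with an array left out. One gene, the sulfotransferase, had an unadjusted limma p under 0.05 in the upward direction, where 0.541% of all genes did, and the groups did not overlap for 1 gene upward, against 2.43% of genes upward, 2.26% downward and 4.7% in either direction. At least 2-fold higher were 3 genes (2.01% of all genes) and at least 2-fold lower was 1 gene, HY5 (5.58% of all genes). The 2 genes that the study had listed as up-regulated on these arrays are among the 3. Of the other 7 genes 3 were higher and 4 lower, with a median of -0.04, and 0 had an unadjusted p under 0.05 in limma. In the fit with scan as a block, 3 of the 9 genes had an unadjusted p under 0.05: HY5 lower, and the glucosyltransferase and the sulfotransferase higher, beside 3.59% of all genes lower and 1.71% higher; the value of the glucosyltransferase includes background readings. No adjusted p passed in either fit.

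Upstream of the branch, 5 genes of the shared pathway were taken, all listed by the study as up-regulated on the same arrays, so that their direction is not independent evidence. Phenylalanine ammonia-lyase (PAL), the entry enzyme of phenylpropanoids, chalcone synthase CHS1, flavanone 3-hydroxylase F3H2, which makes the dihydroflavonols, and the B-ring hydroxylases F3'H and F3'5'H were all at least 2-fold higher, with log2 differences of 1.34, 2.62, 1.27, 1.89 and 1.62. Over all genes, 2.01% were at least 2-fold higher. None of the 5 passed the adjusted test. An unadjusted limma p under 0.05 was reached by 3 of them, where 0.541% of all genes reached it upward. With scan as a block 5 reached it, where 1.71% of all genes did upward. All 5 were higher in every scan, where 11.6% of all genes were. The groups of PAL, CHS1 and F3'5'H overlapped, and the 95% interval of F3'5'H ran from -0.89 to 4.12. F3'H read 1.61, 2.62 and 1.77 in the controls and 3.78, 3.86 and 4.02 in 35S:VvWRKY26 (difference 1.89 ± 0.38). CHS1 had the same order of control lines as MYBF1, with -0.82, -4.45 and -3.34 in replicates 1, 2 and 3. PAL, F3H2, GT5 and the leaf gene CRD1 shared that order, while F3'H and F3'5'H did not. The order was thus not particular to CHS1 and MYBF1.

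In the competing proanthocyanidin branch, also listed by the study from these arrays, 3 of 4 genes had an unadjusted limma p under 0.05 upward, beside 0.541% of all genes. They were leucoanthocyanidin reductase LAR1 (1.34 ± 0.41), the glucosyltransferase GT1 (2.93 ± 0.60) and the MYB activator of the branch MYBPA1 (2.86 ± 0.57), and their groups did not overlap, as for 2.43% of all genes upward. Anthocyanidin reductase ANR differed by 0.35 ± 1.17 and was not well above background in 35S:VvWRKY26 replicate 2. Since the study had selected these genes for a rise on these arrays, the size of their differences is not set against that of the flavonol genes.

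Of the other light-signalling genes, UVR8, the ultraviolet-B photoreceptor, differed by 0.07 ± 0.38, SUB1, named after the Arabidopsis gene SHORT UNDER BLUE LIGHT 1, by 0.02 ± 0.54, and COP1-interacting protein 7 by 0.57 ± 0.55 (95% interval -0.77 to 1.92). None of these 3 had an unadjusted limma p under 0.05. Of the flavonoid regulators taken beside MYBF1, the MYB repressor MYBC2-L1 differed by 0.32 ± 0.38 and the bHLH factor MYC1 by 0.15 ± 0.31, and the groups overlapped for both.

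**Figure D3:**
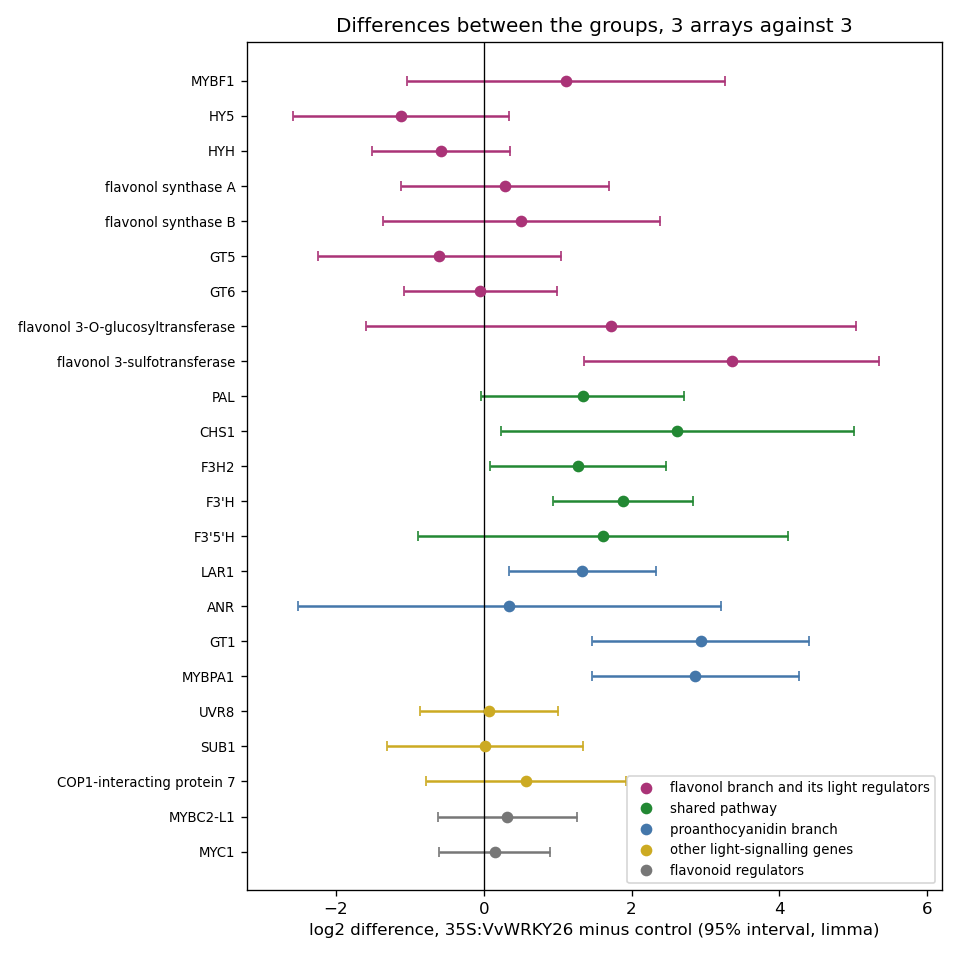
Log2 difference between 35S:VvWRKY26 and control with its 95% interval from limma without a block, for the 9 genes and for the shared pathway, proanthocyanidin, light-signalling and regulator genes. The interval excludes 0 for the flavonol 3-sulfotransferase (1.36 to 5.35) and includes it for the other 8 genes of the branch.

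Genes whose identifier numbers lay within 100 of one of the 9 were counted, 134 in all. Of these 54 were higher and 80 lower, with a median log2 difference of -0.08, and the 20 around the flavonol synthases had a median of -0.23. An unadjusted limma p under 0.05 was reached by 1 of the 134, where 1.03% of all genes reached it. This was VIT_04s0008g05300, 1 of the 19 near HY5, lower by a log2 difference of -1.03 ± 0.41 (limma adjusted p = 0.999983). Its groups did not overlap. Of the 134, the groups did not overlap for 1 gene upward and 3 downward, beside 2.43% and 2.26% of all genes. The 17 genes near the sulfotransferase differed by between -0.33 and 0.57.

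The pattern of MYBF1 over the 6 arrays was set against that of 23459 other genes that were well above background on all arrays, by the root mean square difference of log2 values centred on each gene's mean. The closest was VIT_07s0104g00610 at 0.156, which read -0.31, -3.63 and -2.04 in controls and -0.54, -2.05 and -0.39 in 35S:VvWRKY26, and the next was VIT_19s0014g00450 at 0.214. Neither identifier has a description in the files, and the third of the closest genes lay at 0.217. A gene with the same value on all arrays would lie at 1.15 from MYBF1. GT5 lay at 1.05 and GT6 at 1.15, about as far as such a flat gene. The other members lay farther. Flavonol synthase A lay at 1.55, B at 1.31, HYH at 1.54 and HY5 at 1.85. The flavonol 3-O-glucosyltransferase lay at 1.98 and the flavonol 3-sulfotransferase at 2.19. With 6 arrays that share scans in pairs, these distances are descriptions.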

How the data were processed

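RNA from leaves of 3 lines per group was measured on one-color Agilent arrays. The authors deposited spot intensities from Agilent Feature Extraction 10.5.1.1, background-subtracted by that software, together with values scaled by the 75th percentile. Among the scaled values, 5 columns were 1 factor times the processed signal in at least 34368 of 34369 rows (within 0.2% or 0.02 units), and the column of 35S:VvWRKY26 replicate 2 was the mean of those of replicates 1 and 3, so the scanner values were used. These deposited intensities were turned to log2 minus the 75th percentile of 34369 gene probes per array. Control spots (1417) were not used, and spots marked as outliers (6 to 139 per array) were set missing; 0 were saturated, and no member lost a spot. All genes were fitted together with limma 3.58.1 (lmFit, eBayes) in R 4.3.3, two-sided, with Benjamini-Hochberg adjustment over all genes, a threshold of 0.05 and no covariate. This fit, its intervals and the exact permutations do not use the sharing of scans by pairs of arrays, which the fit with scan as a block does. Single genes and probe ratios were also given exact permutation tests. Precision is limited by the number of arrays. Each gene has 1 probe, so signals of near-identical family members cannot be separated. Figures were drawn with matplotlib 3.10.9.

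Named are the 9 members, VvWRKY26, lists of the shared pathway, the proanthocyanidin branch, light signalling, regulators and leaf genes, genes with identifier numbers within 100 of a member, and the 3 genes closest to MYBF1. The members and lists were chosen with earlier results of these data known. Alternatives were normexp correction (offset 50, median spot signals), quantile normalization, no scaling, the deposited table, a filter on dim probes, dim spots raised to the lowest measured signal, outliers kept, array weights, an intensity trend, blocks for replicate number, scan and slide, each array left out, and the t-test of the methods. No sequences or coordinates are given, since no genome of the build used for the array was at hand.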

Additional observations from a re-analysis of the deposited data

How the results depend on the processing

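Over 18 alternatives (17 for the flavonol 3-O-glucosyltransferase, which the filter on dim probes removed) the log2 differences of MYBF1, HY5, HYH and the flavonol 3-sulfotransferase kept their sign, while those of the other 5 genes turned under at least 1; the limma adjusted p of the 9 genes ran from 0.876185 to 0.999998, and 0 genes of the array passed under any. Reversed values were -0.0141 for flavonol synthase A with array weights, -0.36 for flavonol synthase B and -0.12 for the flavonol 3-O-glucosyltransferase under normexp correction, 0.0182 for GT5 in the deposited table, and for GT6 0.0342 with quantile normalization, 0.0904 without scaling and 0.0449 in the deposited table; normexp also turned the difference between the flavonol synthase probes to -0.69. The cause was not tested. With each array left out in turn, flavonol synthase A ran from -0.24 to 0.75, B from -0.30 to 1.03, GT5 from -1.10 to 0.000472, GT6 from -0.36 to 0.22, the GT6 to GT5 probe ratio from 0.0063 to 0.95, and the synthase probe ratio from -0.71 to 0.91. Genes with an unadjusted p under 0.05 numbered 855 with quantile normalization, 145 without scaling, 1272 in the deposited table, whose averaged column narrows the spread, 628 with an intensity trend, 789 with array weights, 1822 with scan and 537 with slide as a block, 779 and 561 with the methods' t-test at equal and unequal variances (0 after Benjamini-Hochberg), and from 219 without 35S:VvWRKY26 replicate 1 to 1213 without control replicate 1. Members so called numbered 1 in the main fit, beside 355 of all 34369 genes. They numbered 0 under normexp (396 genes), 2 in the deposited table (1272), 2 with array weights (789) and 3 with scan as a block (1822). With an array left out they numbered from 1 to 3, and the count of 3, without control replicate 1, stood beside 1213 genes. Members with no overlap numbered 0 under normexp (4.43% of all genes) and 2 in the deposited table (11%). With an array left out they numbered from 1 to 4, where 9.32% to 17.4% of all genes did not overlap. The count of 4, without control replicate 1, stood beside 17.4%. The median log2 difference of all genes was -0.33 under normexp, 0.08 without scaling and 0.10 in the deposited table, against -0.05.

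The labels number the replicates 1 to 3 in both groups. Deviations of same-numbered arrays correlated at 0.63, -0.28 and -0.41, so the numbers do not pair them, whereas arrays of the same scan correlated at 0.63, 0.69 and 0.54. With the replicate number as a block, 1 member (the sulfotransferase, 3.36, limma adjusted p = 0.999981) and 246 genes had an unadjusted p under 0.05, and 0 passed. Faint spots limit the flavonol 3-O-glucosyltransferase, flavonol synthase B and the flavonol 3-sulfotransferase.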
